A study of Mus musculus with 6 samples.

Results

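Interferon-stimulated genes are the genes that cells switch on when interferon binds its receptors, and 37 of them were followed here among the 55573 gene identifiers of the count table. The members were taken by symbol from a list of interferon-induced genes with no threshold on measured values, and all 37 were found once. They comprise 32 genes typical of the type I interferon response and 5 genes of the guanylate-binding protein (Gbp) and immunity-related GTPase (Irg) families, which respond most strongly to interferon gamma.

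The cells came from retinas of adult C57BL/6J mice. Each eye had received adeno-associated virus AAV2 carrying *GFP* (control group) or *Ezh2* (*Ezh2* overexpression group) by intravitreal injection. For all 6 libraries the optic nerve was crushed (ONC) 2 weeks after the virus, and sorting took place 3 days after ONC. Per the study's methods the sort kept live cells carrying CD90.2, the product of *Thy1*, a gene that T cells also express, and AAV2 also enters retinal cells other than retinal ganglion cells (RGCs). There were 3 libraries a group, and no uninjured or virus-free group, so all values are from injured, virus-injected eyes. The labels do not state whether replicates were separate animals, and p-values measure only the spread between these libraries. The study left out 1 Ezh2 library, which is inferred to be replicate 3. The main comparison therefore used 5 libraries, GFP replicates 1 to 3 and Ezh2 replicates 1 and 2, and counts of genes with all 6 libraries are given beside it.

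*Ezh2*, the overexpressed gene, was at 28.8, 34.6 and 33.0 CPM (counts scaled to a library total) in GFP replicates 1 to 3 and at 78.0, 65.3 and 105 CPM in Ezh2 replicates 1 to 3. The libraries held 30569933 to 35971192 counts, and the lowest member count in any library was 404. Of 8 RGC markers, the Pou4f transcription factors that define these cells were scarce. *Pou4f1*, *Pou4f2* and *Pou4f3* did not exceed 0.6, 0.0932 and 0.404 CPM in any library, and *Slc17a6* lay between 4.09 and 8.17 CPM. *Rbpms*, which marks RGCs broadly, was at 16.4 to 20.8 CPM, *Sncg* at 1.73 to 3.36 CPM, *Nefl* at 9.42 to 15.4 CPM, and *Thy1*, on which the cells were sorted, at 87.2 to 114 CPM. The summed Müller glia markers ranged from 8752 to 14910 CPM. The values below are those of the whole sorted population.

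As background, cells that detect foreign or misplaced nucleic acid release type I interferons, which bind the receptor *Ifnar1*/*Ifnar2* and activate the kinases *Jak1* and *Tyk2*. These phosphorylate *Stat2*, which joins *Irf9* in a complex that binds the interferon-stimulated response element (ISRE) in promoters. Interferon gamma, made by T cells and natural killer cells, acts through *Ifngr1*/*Ifngr2* on promoters that hold the gamma-activated sequence (GAS). In the retina, microglia, Müller glia and infiltrating immune cells can all raise these genes.

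Promoter sequence shows what the members share beyond their name. Of the 37 members, 29 had a window in the RefSeq table of promoters (GRCm38.p6), and *Usp18*, *Mx1*, *Mx2*, *Oas2*, *Zbp1*, *Rtp4*, *Ifi27* and *Parp14* had none. The ISRE core was searched as GAAANNGAAA on both strands over the 250 bases before the start site. It was found in 14 of the 29 members (48.3%), compared to 936 of 27025 genes with a window (3.46%). All 5 Gbp and Irg members held it, and 9 of 24 type I members did (37.5%). The GAS core, TTCNNNGAA, was found in 6 of the 29 members (20.7%), compared to 8.13% of all genes. Matches of both motifs may share bases, and each motif was counted on its own. A match is a string of letters, not a measured binding site. The 80-base stretches below, in the direction of transcription, come from members that fell in the Ezh2 libraries and hold a core. They are shown because they carry the element through which the pathway acts. Capitals mark every ISRE core on either strand.
Ifit3, chr19:34583372-34583451, plus strand: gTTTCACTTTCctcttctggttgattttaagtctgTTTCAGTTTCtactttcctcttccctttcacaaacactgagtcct
Ifit1, chr19:34640769-34640848, plus strand: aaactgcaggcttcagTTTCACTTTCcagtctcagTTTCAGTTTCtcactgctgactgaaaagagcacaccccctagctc
Stat2, chr10:128270248-128270327, plus strand: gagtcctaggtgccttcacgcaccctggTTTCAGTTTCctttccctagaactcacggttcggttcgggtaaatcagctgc
Igtp, chr11:58199476-58199555, plus strand: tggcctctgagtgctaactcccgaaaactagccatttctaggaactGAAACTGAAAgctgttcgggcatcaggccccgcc
Gbp7, chr3:142530248-142530327, plus strand: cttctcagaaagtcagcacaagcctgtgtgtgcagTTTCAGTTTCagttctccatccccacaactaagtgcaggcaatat

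The same core stood in promoters of members that did not pass the test, of which *Isg15*, *Trim30a* and *Oas1a* are shown for contrast.
Isg15, chr4:156200840-156200919, minus strand: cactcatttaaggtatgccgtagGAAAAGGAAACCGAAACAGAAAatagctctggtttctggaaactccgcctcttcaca
Trim30a, chr7:104465194-104465273, minus strand: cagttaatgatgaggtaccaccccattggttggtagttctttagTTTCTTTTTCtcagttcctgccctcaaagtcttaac
Oas1a, chr5:120907526-120907605, minus strand: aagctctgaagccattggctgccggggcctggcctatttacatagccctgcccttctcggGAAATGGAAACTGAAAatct
Among members with a window, the core was in 7 of 14 that fell (50%) and in 7 of the other 15 (46.7%). The median log2 fold change was -0.20 over the 14 members with a core and -0.11 over the 15 without. Members with a core were about as common among those that fell as among the others.

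Most interferon-stimulated genes were modestly lower with *Ezh2* overexpression. In the 5 libraries, 19 of the 37 members fell and 1, *Sp100*, rose at an adjusted p under 0.05 (quasi-likelihood test of edgeR, Benjamini-Hochberg adjusted over all genes tested). Among all 20241 genes tested, 7.68% fell and 10.1% rose by that rule. None of the 37 was also changed by more than 1.5-fold, the rule for a called gene, which 3.8% of all genes met. DESeq2 and limma-voom also called none of the members. At an unadjusted p under 0.05, 23 members passed by edgeR. The members' median log2 fold change was -0.18, with a range from -0.52 to 0.29, while the median of all genes tested was -0.01. Of the members, 75.7% had a negative log2 fold change, compared to 51.3% of all genes tested. In bulk samples such as these, fewer cells that express a gene and less of its RNA per cell cannot be told apart.

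The replicates were close enough to show changes of this size. The coefficient of variation of a member among the 3 GFP libraries had a median of 3.47% and did not exceed 10.9%. In 24 members both Ezh2 libraries lay below every GFP library, and in 1 they lay above, compared to 23.4% and 21.5% of all genes tested. Of the 19 members that fell, 11 still passed when any single library of the 5 was left out, and these were *Ifit1*, *Ifit3*, *Usp18*, *Oasl2*, *Cmpk2*, *Stat2*, *Ifih1*, *Xaf1*, *Parp14*, *Gbp3* and *Igtp*. Without Ezh2 replicate 1 the number that fell was 12, which was the largest loss from leaving out 1 library.

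With all 6 libraries the median of the members stayed negative but fewer members passed, and 7 with small changes switched sign, as given further below. Of the 37, 7 fell (*Ifit1*, *Ifit3*, *Usp18*, *Cmpk2*, *Stat2*, *Ifih1* and *Xaf1*) and none rose by edgeR's adjusted p, compared to 2.7% and 3.08% of 19732 genes tested, with 22 members past an unadjusted p of 0.05. All 7 had also fallen in the 5 libraries. *Ifit3* was the only member called in the 6 libraries, where 2.52% of all genes were called. The median of the members was -0.22, and 23 members were lower and 1 higher without overlap of the groups, compared to 19.3% and 14.9% of all genes. The biological coefficient of variation over all genes was 0.0846 in the 5 libraries and 0.184 in all 6. The GFP libraries are shared by these comparisons.

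**Figure D1:**
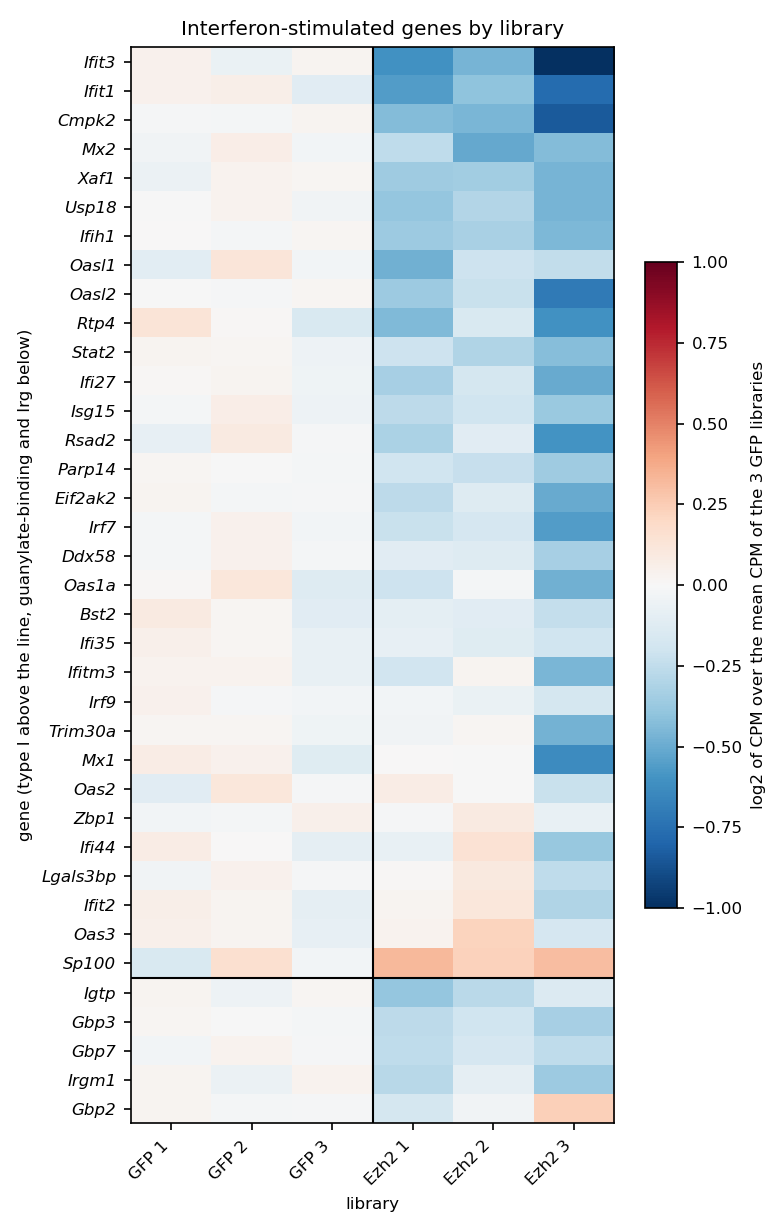
Log2 ratio of each member's CPM to the mean of the 3 GFP libraries (colour), by gene (rows, ordered by log2 fold change in 5 libraries) and library (columns), with type I genes above and Gbp and Irg genes below the black line. Ezh2 libraries are mostly blue, Ezh2 replicate 3 is bluest for type I genes, and Sp100 is red in all 3 Ezh2 libraries.

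The tetratricopeptide RNA-binding proteins, which grip viral RNA and block its translation, showed the largest falls. *Ifit3* was at 274, 254 and 272 CPM in GFP replicates 1 to 3, at 175 and 193 CPM in Ezh2 replicates 1 and 2, and at 132 CPM in Ezh2 replicate 3. All 3 Ezh2 libraries lay well below all 3 GFP libraries. The log2 fold change was -0.52 ± 0.06 (SE, n = 3 and 2, edgeR adjusted p = 4.01e-08), and with all 6 libraries it was -0.64 (edgeR adjusted p = 0.0162). *Ifit1* was at 96.9, 97.9 and 86.6 CPM in the GFP libraries and at 63.5, 70.8 and 55.0 CPM in the Ezh2 libraries, again without overlap. Its log2 fold change was -0.47 ± 0.07 (SE, edgeR adjusted p = 6.16e-06). *Ifit2*, the first gene of the same cluster, did not pass. It was at 86.2, 84.7 and 78.0 CPM in the GFP libraries and at 84.7, 89.7 and 67.3 CPM in the Ezh2 libraries, with overlapping groups and a log2 fold change of 0.08 ± 0.06 (SE). *Ifit3* has a near-identical copy, *Ifit3b*, and reads could be split between them. *Ifit3b* was looked up after its neighbour's values were seen, and it also fell, from 95.5, 88.1 and 94.3 CPM to 56.6 and 63.1 CPM, with 52.4 CPM in Ezh2 replicate 3. Its log2 fold change was -0.62 ± 0.06 (SE, edgeR adjusted p = 2.72e-08), and -0.65 with all 6 libraries (edgeR adjusted p = 0.0036). Both are past the 1.5-fold limit for a called gene, though *Ifit3b* is not a member.

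In the ISG15 system, the deconjugating enzyme fell and the modifier did not pass the test. *Usp18*, which removes ISG15 from proteins and dampens signalling at the type I receptor, was at 42.8, 43.9 and 41.8 CPM in the GFP libraries and at 32.8, 34.9 and 31.0 CPM in the Ezh2 libraries. The groups did not overlap, and the log2 fold change was -0.33 ± 0.08 (SE, edgeR adjusted p = 0.00241). *Isg15*, the ubiquitin-like modifier itself, was at 26.8, 28.3 and 26.1 CPM in the GFP libraries and at 22.5, 23.6 and 20.96 CPM in the Ezh2 libraries. It did not overlap either, but its log2 fold change of -0.22 ± 0.09 (SE) missed the threshold (edgeR adjusted p = 0.084).

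The Mx genes encode dynamin-like GTPases that restrict viruses, and they parted. *Mx2* was at 42.4, 45.3 and 42.5 CPM in the GFP libraries and at 36.4, 30.5 and 32.2 CPM in the Ezh2 libraries. All Ezh2 values were lower, with a log2 fold change of -0.37 ± 0.08 (SE, edgeR adjusted p = 0.00122). Without Ezh2 replicate 2 the edgeR adjusted p of *Mx2* was 0.0652. *Mx1* was at 40.9, 40 and 35.7 CPM in the GFP libraries and at 39.0 and 38.7 CPM in Ezh2 replicates 1 and 2, within the GFP range. In Ezh2 replicate 3 it was at 25.1 CPM, below that range. Whether the Mx genes differed from each other was not tested.

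Of the OAS family members on the list, the OAS-like genes fell in the 5 libraries and the classical synthetases did not pass. *Oasl2*, which is OAS-like and the most abundant of the family per kilobase of exon, was at 338, 335 and 342 CPM in the GFP libraries and at 263, 290 and 207 CPM in the Ezh2 libraries. The groups were far apart, and the log2 fold change was -0.28 ± 0.05 (SE, edgeR adjusted p = 0.00022). *Oasl1*, a translational inhibitor of *Irf7*, was at 16.3, 19.1 and 17.2 CPM in the GFP libraries and at 12.5, 15.2 and 14.8 CPM in the Ezh2 libraries (edgeR adjusted p = 0.0452). Its edgeR adjusted p was 0.445 without Ezh2 replicate 1, 0.187 without GFP replicate 2 and 0.0806 without GFP replicate 3. *Oas1a*, *Oas2* and *Oas3* make the oligoadenylates that switch on RNase L. *Oas1a* was at 39.8, 42.8 and 36.1 CPM in the GFP libraries and at 34.3, 39.0 and 28.3 CPM in the Ezh2 libraries, with overlapping groups. Log2 fold changes of these synthetases lay between -0.10 and 0.14. *Oas1a* has a close copy, *Oas1g*, which was looked up after the values were seen. *Oas1g* was at 18.7, 20.9 and 18.8 CPM in the GFP libraries and at 14.1, 12.9 and 9.06 CPM in the Ezh2 libraries. It fell, with a log2 fold change of -0.52 ± 0.11 (SE, edgeR adjusted p = 0.000473), unlike the classical synthetases on the member list. With all 6 libraries *Oas1g* also passed (edgeR adjusted p = 0.0385), while *Oasl1* and *Oasl2* did not (0.245 and 0.0527).

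Of the antiviral enzymes, *Cmpk2* and *Eif2ak2* fell. *Cmpk2*, a mitochondrial nucleotide kinase that works with its neighbour *Rsad2*, was at 85.6, 85.1 and 88.0 CPM in the GFP libraries and at 63.9, 63.0 and 48.1 CPM in the Ezh2 libraries. These groups were clearly separate, with a log2 fold change of -0.43 ± 0.06 (SE, edgeR adjusted p = 2.66e-06). *Eif2ak2*, which encodes the RNA-activated kinase PKR, was at 103.4, 100.03 and 100.6 CPM in the GFP libraries and at 84.7, 92.5 and 71.3 CPM in the Ezh2 libraries. It fell by 0.18 ± 0.06 (SE) on the log2 scale (edgeR adjusted p = 0.0267). *Eif2ak2* no longer passed when any single GFP library was left out, at edgeR adjusted p values of 0.0565 or more. Over the fits that left out 1 library of the 5, its log2 fold change ranged from -0.26 to -0.107. *Rsad2* (viperin), which makes a chain-terminating nucleotide, was lower in every Ezh2 library at 35.5, 41.0 and 29.3 CPM, compared to 41.8, 47.1 and 43.9 CPM in the GFP libraries, but its edgeR adjusted p was 0.0899.

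Among the transcription factors that run the response, *Stat2* and *Irf7* fell and *Irf9* did not pass. *Stat2* was at 227, 226 and 215 CPM in the GFP libraries and at 193, 181 and 166 CPM in the Ezh2 libraries. There was no overlap, and the log2 fold change was -0.24 ± 0.05 (SE, edgeR adjusted p = 0.000889). *Irf7*, which drives the later wave of interferon production, was at 127, 132 and 126 CPM in the GFP libraries and at 110, 114 and 87.0 CPM in the Ezh2 libraries (edgeR adjusted p = 0.0145). *Irf7* missed the threshold without Ezh2 replicate 1 or GFP replicate 2, at edgeR adjusted p values of 0.117 and 0.0914. *Irf9*, the DNA-binding partner of *Stat2*, was at 152, 146 and 145 CPM in the GFP libraries and at 145, 141 and 131 CPM in the Ezh2 libraries. Its groups overlapped in the 5 libraries, and its log2 fold change was -0.04 ± 0.05 (SE).

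Of the nucleic acid sensors, only *Ifih1* passed. *Ifih1* (MDA5), the sensor of long double-stranded RNA, was at 112, 111 and 114 CPM in the GFP libraries and at 87.4, 89.7 and 82.2 CPM in the Ezh2 libraries. The separation was wide relative to the replicates, with a log2 fold change of -0.33 ± 0.05 (SE, edgeR adjusted p = 4.57e-05). *Ddx58* (RIG-I), its relative for short RNA ends, was at 143, 149 and 143 CPM in the GFP libraries and at 134, 132 and 116 CPM in the Ezh2 libraries, with a log2 fold change of -0.11 ± 0.05 (SE, edgeR adjusted p = 0.144). *Zbp1*, which senses left-handed nucleic acids and can trigger necroptosis, had a log2 fold change of 0.05 ± 0.07 (SE).

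Of the membrane proteins, *Rtp4* fell, while *Ifitm3* and *Bst2* did not pass. *Ifitm3*, which blocks viral entry from endosomes, had the highest level per kilobase of exon of all members (163 CPM per kilobase, mean of 6 libraries). It was at 121, 121 and 112 CPM in the GFP libraries and at 103, 120 and 85.9 CPM in the Ezh2 libraries. These groups overlapped. *Bst2* (tetherin), which holds budding virions at the cell surface, was at 59.7, 57.0 and 52.0 CPM in the GFP libraries and at 52.6, 52.2 and 47.8 CPM in the Ezh2 libraries, also with overlap in the 5 libraries. *Rtp4*, a chaperone of membrane receptors, had a log2 fold change of -0.28 ± 0.09 (SE, edgeR adjusted p = 0.0427). *Rtp4* shares 13.9% of its exon bases with a transcript on its own strand. It no longer passed without GFP replicate 1 or GFP replicate 2, at edgeR adjusted p values of 0.157 and 0.108. Over the fits that left out 1 library of the 5, its log2 fold change ranged from -0.445 to -0.131.

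The 8 other type I genes were the most mixed, with 3 that fell, 1 that rose and 4 that did not pass. *Parp14*, an ADP-ribosyltransferase, was at 392, 385 and 381 CPM in the GFP libraries and at 337, 330 and 301 CPM in the Ezh2 libraries. This tight separation gave a log2 fold change of -0.20 ± 0.05 (SE, edgeR adjusted p = 0.00321). *Xaf1*, a pro-apoptotic partner of XIAP, had a log2 fold change of -0.34 ± 0.06 (SE, edgeR adjusted p = 8.17e-05), and *Ifi27*, a small mitochondrial and nuclear-envelope protein, had one of -0.24 ± 0.06 (SE, edgeR adjusted p = 0.00749, or 0.174 without Ezh2 replicate 1). *Lgals3bp*, a secreted galectin-binding glycoprotein, was at 324, 341 and 328 CPM in the GFP libraries and at 334, 354 and 278 CPM in the Ezh2 libraries. Its groups overlapped. *Ifi35*, *Ifi44* and *Trim30a*, a ubiquitin ligase that restrains Toll-like receptor signalling, had log2 fold changes of -0.09, 0.06 and 0.00, and 16.8% of *Ifi35* exon bases are shared with an antisense gene.

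*Sp100* was the exception. It encodes a scaffold of nuclear bodies and was at 49.0, 60.8 and 53.4 CPM in the GFP libraries and at 68.0, 63.9 and 67.4 CPM in the Ezh2 libraries. All 3 Ezh2 libraries lay above the GFP libraries. The log2 fold change was 0.29 ± 0.07 (SE, edgeR adjusted p = 0.00617). Without Ezh2 replicate 1 or GFP replicate 1 the edgeR adjusted p was 0.0527 or 0.0511, and with all 6 libraries it was 0.078.

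**Figure D2:**
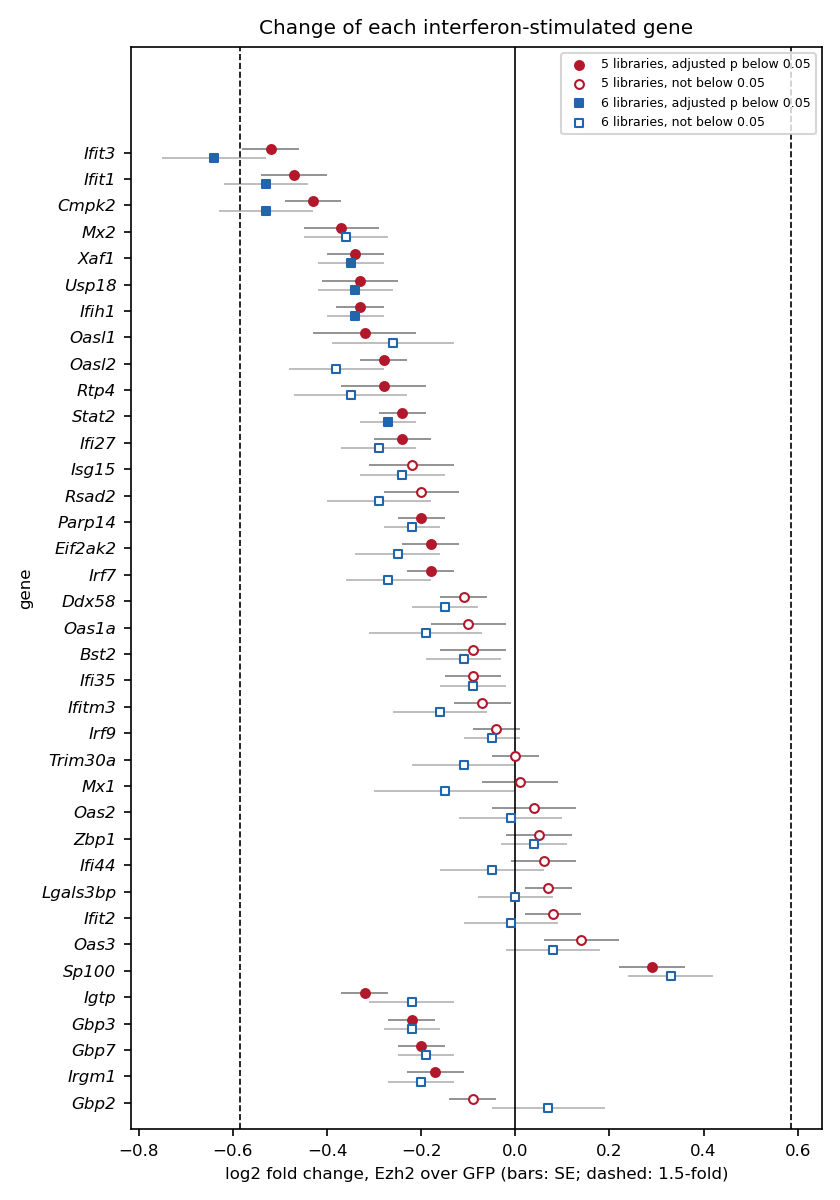
Log2 fold change of each member, Ezh2 over GFP (x axis, bars show the SE), by gene (y axis), in 5 libraries (red circles) and 6 libraries (blue squares). Filled symbols had an edgeR adjusted p below 0.05, and dashed lines mark 1.5-fold, which Ifit3 alone passed, in the 6 libraries.

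The guanylate-binding and Irg members, GTPases that attack pathogen vacuoles, fell in 4 of 5 cases in the 5 libraries. *Igtp* (Irgm3) was at 344, 326 and 342 CPM in the GFP libraries and at 258 and 280 CPM in Ezh2 replicates 1 and 2, with 307 CPM in Ezh2 replicate 3. All Ezh2 libraries were below the GFP libraries, replicate 3 the least so, with a log2 fold change of -0.32 ± 0.05 (SE, edgeR adjusted p = 4.57e-05). *Irgm1*, a regulator of the other Irg GTPases, was at 408, 383 and 409 CPM in the GFP libraries and at 330, 376 and 310 CPM in the Ezh2 libraries. It fell (edgeR adjusted p = 0.0384), and its edgeR adjusted p was 0.524 without Ezh2 replicate 1 and 0.124 or 0.125 without GFP replicate 1 or 3. *Gbp3* and *Gbp7* had log2 fold changes of -0.22 ± 0.05 and -0.20 ± 0.05 (SE) and edgeR adjusted p values of 0.00228 and 0.00548, the latter 0.0824 without Ezh2 replicate 1. *Gbp7* shares 11.3% of its exon bases with a pseudogene and *Igtp* shares 8.0% with *Irgm2*, so their counts are uncertain to that extent.

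*Gbp2* was the fifth, and in it the Ezh2 libraries went separate ways. It was at 344, 333 and 335 CPM in the GFP libraries and at 299 and 330 CPM in Ezh2 replicates 1 and 2, but at 399 CPM in Ezh2 replicate 3. The first 2 Ezh2 replicates were thus below, and the remaining one above, every GFP library. Its log2 fold change was -0.09 ± 0.05 (SE) in the 5 libraries and 0.07 in all 6, and neither passed. *Gbp2b*, a gene of the same family next to *Gbp2*, was at 336, 310 and 319 CPM in the GFP libraries and at 284, 303 and 213 CPM in the Ezh2 libraries.

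Side by side, the type I genes and the Gbp and Irg genes had like medians in the 5 libraries. Of 32 type I genes, 15 fell and 1 rose, with a median log2 fold change of -0.18. Of the 5 Gbp and Irg genes, 4 fell, with a median of -0.20. With all 6 libraries, 7 type I genes fell and 0 Gbp or Irg genes passed by edgeR, though 4 of the latter had an unadjusted p under 0.05, with medians of -0.23 and -0.20. Summed over members, type I genes reached 3470 to 3570 CPM in the GFP libraries, 3065 and 3190 CPM in Ezh2 replicates 1 and 2, and 2598 CPM in replicate 3. The summed Gbp and Irg genes were at 1477 to 1527 CPM in the GFP libraries and at 1246, 1365 and 1368 CPM in the Ezh2 libraries. Whether the classes differed was not tested.

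Ezh2 replicate 3, which the main comparison did not use, went further in the same direction for the type I genes. In it, 35 of the 37 members were below every GFP library and 2, *Gbp2* and *Sp100*, were above. Of all genes tested, 47.1% were below and 31.9% above, so this library sat apart from the GFP libraries for most genes. The median log2 ratio of its CPM to the GFP mean was -0.44 over type I genes, -0.25 over Gbp and Irg genes, and -0.14 over all genes tested.

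Members that lie next to each other did not always move together. In the Ifit cluster (chr19:34550694-34650009, GRCm38), *Ifit3* and *Ifit1* fell and *Ifit2* did not pass. In the Oas cluster (chr5:120730333-120907521), none of the 3 members passed, while both Oasl genes (chr5:114896936-114937915) fell. In the Gbp cluster (chr3:142530342-142638008), 2 of 3 members fell, and in the Mx pair (chr16:97447035-97560900) and the *Rsad2* and *Cmpk2* pair (chr12:26442746-26479837) 1 of 2 did.

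In upstream parts of the pathway outside the member list, the pattern was different. Members that also act in sensing or signalling, *Stat2*, *Irf7*, *Ifih1* and *Usp18*, fell and are not counted in these layers. Of 21 interferon genes, 20 had at most 3 counts in every library, and 16 of these had no count at all. The 20 include every interferon alpha and beta gene on the list, so no type I ligand exceeded 3 counts, which equal 0.0834 to 0.0981 CPM in these libraries. The remaining ligand, *Ifng* (interferon gamma), was at 2.88, 3.95 and 2.96 CPM in the GFP libraries and at 5.78, 4.68 and 9.17 CPM in the Ezh2 libraries. It was higher in all 3 Ezh2 libraries, and 25.9% of its exon bases are shared with another transcript on its strand. Its log2 fold change was 0.69 ± 0.22 (SE, edgeR adjusted p = 0.024), and it was called in the 5 libraries. With all 6 libraries the edgeR adjusted p was 0.0646, and it was 0.231 without Ezh2 replicate 1, 0.0673 without GFP replicate 1 and 0.0838 without GFP replicate 3.

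Of the 6 receptor chains, 4 rose and none fell, in the 5 libraries and in all 6. Of all genes tested, 10.1% rose and 7.68% fell in the 5 libraries, and 3.08% rose and 2.7% fell in all 6. *Ifnar1*, a chain of the type I receptor, was at 146, 156 and 157 CPM in the GFP libraries and at 186, 181 and 187 CPM in the Ezh2 libraries. Its partner *Ifnar2* was at 48.9, 51.8 and 51.2 CPM in the GFP libraries and at 62.5, 60.8 and 59.1 CPM in the Ezh2 libraries. Neither chain overlapped between groups, and their log2 fold changes were 0.27 ± 0.05 and 0.30 ± 0.07 (SE), with edgeR adjusted p values of 0.000261 and 0.00149. *Ifngr2*, a chain of the interferon gamma receptor, rose by a log2 fold change of 0.40 ± 0.07 (SE), and *Il10rb*, a chain shared by interferon lambda and interleukin receptors, by 0.57 ± 0.08 (SE). The edgeR adjusted p values were 6.35e-05 and 4.28e-06. *Ifngr1* and *Ifnlr1* had log2 fold changes of 0.15 ± 0.05 and 0.28 ± 0.18 (SE), with edgeR adjusted p values of 0.0513 and 0.337. *Ifnar2* and *Il10rb* each share exon bases (9.5% and 14.9%) with the gene Gm21970 on their strand, so they are uncertain to that extent.

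Of the 9 kinases, STATs and IRFs outside the member list that are given here, *Jak1*, *Tyk2*, *Irf5* and *Irf8* rose in the 5 libraries, and of these 4 *Irf8* alone passed in all 6. *Irf8*, a transcription factor of myeloid cells, was at 132, 134 and 125 CPM in the GFP libraries and at 182, 175 and 171 CPM in the Ezh2 libraries. The groups did not overlap, and the log2 fold change was 0.46 ± 0.05 (SE, edgeR adjusted p = 7.78e-08). *Irf1*, an early transcription factor of the interferon gamma response, was at 302, 292 and 289 CPM in the GFP libraries and at 306, 309 and 329 CPM in the Ezh2 libraries, and it did not pass.

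Of 12 genes of nucleic acid sensing outside the members, 5 rose and none fell in the 5 libraries, and 2 rose in all 6. *Tlr3* did not pass (edgeR adjusted p = 0.0545) but was lower in every Ezh2 library. It was at 50.4, 51.8 and 54.3 CPM in the GFP libraries and at 44.6, 45.9 and 32.9 CPM in the Ezh2 libraries. The 2 that rose in all 6, *Tlr7* and *Ikbke*, were called in both fits. *Tlr7*, an endosomal sensor of single-stranded RNA in myeloid cells, was at 23.2, 20.9 and 19.3 CPM in the GFP libraries and at 34.0, 37.7 and 32.3 CPM in the Ezh2 libraries. The groups were far apart, with a log2 fold change of 0.78 ± 0.09 (SE, edgeR adjusted p = 1.78e-07). *Ikbke*, a kinase of *Irf3* and *Irf7*, had a log2 fold change of 0.59 ± 0.07 (SE, edgeR adjusted p = 6.98e-07), just past the 1.5-fold limit of 0.585. *Ikbke* was under that limit, and no longer called, without GFP replicate 1 (0.57), GFP replicate 3 (0.58) or Ezh2 replicate 2 (0.554).

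Among negative regulators, *Socs3* and *Ptpn6* were called higher in both fits, and *Samhd1* rose by less, in the 5 libraries alone. *Socs3*, an inhibitor of JAK kinases induced by many cytokines, was at 107, 106 and 96.5 CPM in the GFP libraries and at 182, 183 and 192 CPM in the Ezh2 libraries. In the 5 libraries it had the largest rise of these layers, with a log2 fold change of 0.83 ± 0.05 (SE, edgeR adjusted p = 1.34e-12). With all 6 libraries the log2 fold change of *Socs3* was 0.89, compared to 1.05 for *Ifng*, which did not pass there. *Ptpn6* (SHP-1), a phosphatase of blood cells, had a log2 fold change of 0.61 ± 0.06 (SE, edgeR adjusted p = 1.78e-09), and without GFP replicate 3 it was 0.56, under the limit for a call. *Trex1* is listed at 0 in every library, and all of its exon bases are shared with *Atrip* on the same strand. Over these layers, ligands to negative regulators without the members, 17 of the 35 tested genes given here rose in the 5 libraries. Of all genes tested, 10.1% did. Their median log2 fold change was 0.21. In all 6 libraries 9 of 35 rose, compared to 3.08% of all genes tested, with a median of 0.28.

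**Figure D3:**
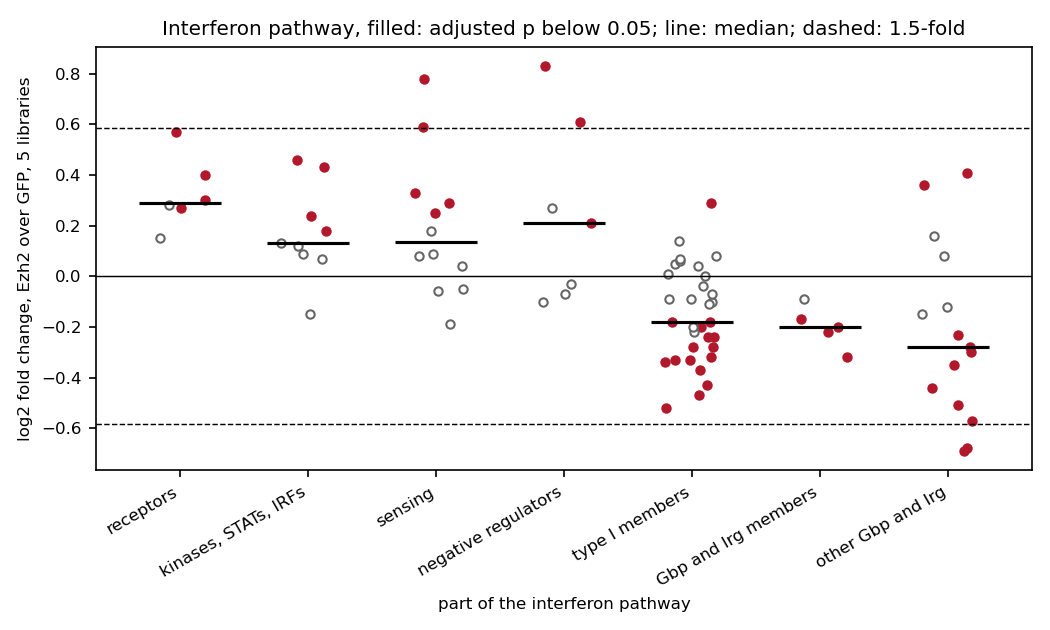
Log2 fold change in 5 libraries (y axis) of each tested gene given here, in 7 layers of the interferon pathway (x axis); filled points had an edgeR adjusted p below 0.05, thick lines are medians and dashed lines mark 1.5-fold. Receptor chains lie above 0, while member genes and other Gbp and Irg genes lie mostly below it.

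The 15 other genes of the Gbp, Irg and related interferon-induced families were also mostly lower. Of these, 9 fell and 2 (*Ifi203* and *Ifi204*, sensors of the DNA-binding p200 family) rose, with a median log2 fold change of -0.28. Of all genes tested, 7.68% fell and 10.1% rose in the 5 libraries, and 2.7% fell and 3.08% rose in all 6. With all 6 libraries 5 fell and 1, *Ifi203*, rose, with a median of -0.26, and *Gbp4*, *Gbp6*, *Gbp9*, *Iigp1* and *Ifi204* no longer passed (edgeR adjusted p = 0.0678 to 0.566). *Tgtp1*, an Irg GTPase, was at 63.2, 57.5 and 57.5 CPM in the GFP libraries and at 33.3, 39.5 and 33.2 CPM in the Ezh2 libraries. All Ezh2 values were far lower, with a log2 fold change of -0.69 ± 0.08 (SE, edgeR adjusted p = 2.34e-07), but reads may be split with its near copy *Tgtp2*. Without Ezh2 replicate 1 the log2 fold change of *Tgtp1* was -0.562, short of the limit for a call. *Gbp11* was at 5.69, 6.26 and 7.26 CPM in the GFP libraries and at 4.16, 3.8 and 3.2 CPM in the Ezh2 libraries (edgeR adjusted p = 0.0106 in the 5 libraries). It missed the threshold without Ezh2 replicate 2 or GFP replicate 3, at edgeR adjusted p values of 0.0901 and 0.0709. *Gbp10*, called in the 6 libraries, was at 44.0, 44.7 and 44.8 CPM in the GFP libraries and at 29.1, 30.4 and 25.4 CPM in the Ezh2 libraries, and 46.3% of its exon bases are shared with another gene on the same strand.

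Markers of several cell types moved between the same libraries. For comparison with the counts below, 10.1% of all genes tested rose and 7.68% fell in the 5 libraries, and 3.08% and 2.7% in all 6. The summed Müller glia markers (*Rlbp1*, *Glul*, *Slc1a3*, *Aqp4* and *Kcnj10*) were at 14410 to 14910 CPM in the GFP libraries, at 10980 and 11180 CPM in Ezh2 replicates 1 and 2 and at 8752 CPM in replicate 3, and all 5 fell in the 5 libraries and 3 in all 6. As for the summed type I genes, Ezh2 replicate 3 was lowest and both other Ezh2 libraries lay below all GFP libraries. The endothelial and mural sums and the plasmacytoid dendritic cell sums, given below, had the same order, so among sums it was not particular to Müller glia. Those sums rested mostly on *Kdr* and *Flt1* and on *Tcf4*. In the 5 libraries 2 of 8 endothelial and mural and 2 of 4 plasmacytoid dendritic cell markers lay below all GFP libraries. Of all genes tested, 23.4% did. The macrophage and monocyte markers went the other way, with 6 of 8 that rose in the 5 libraries (5 of them called) and 5 in all 6, and sums of 514.1 to 587.4 CPM in the GFP libraries compared to 1833, 2323 and 1585 CPM in the Ezh2 libraries. The genes called higher, in both fits, were *Ms4a7*, *Mrc1*, *F13a1*, *Stab1* and *Lyz2*. Of all genes tested, 3.8% were called in either direction in the 5 libraries and 2.52% in all 6. Mean CPM in the GFP libraries and in Ezh2 replicates 1 and 2 were 60.7 and 230 for *Stab1*, and 15.3 and 44.5 for *Ms4a7*. *Ly6c2* did not pass, and *Cd163*, at or below 0.39 CPM in every library, was too low to be tested.

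Glial and neuronal markers also moved. *Gfap*, an intermediate filament of astrocytes that Müller glia also make after injury, was at 415, 413 and 426 CPM in the GFP libraries and at 745, 919 and 719 CPM in the Ezh2 libraries. It was called higher in both fits, with a log2 fold change of 1.01 ± 0.08 (SE, edgeR adjusted p = 1.38e-05), while the other 3 astrocyte markers did not pass in either fit. The RGC markers summed to 122.4 to 126.9 CPM in the GFP libraries and to 153.3, 141.9 and 157.6 CPM in the Ezh2 libraries. Of the 6 that were tested, *Nefl* and *Thy1* rose in the 5 libraries and *Nefl* alone in all 6. The 6 amacrine markers summed to 67.5 to 79.6 CPM in the GFP libraries and to 49.3, 44.8 and 47.3 CPM in the Ezh2 libraries. Of these, *Tfap2b* and *Slc6a9* fell in both fits, and *Tfap2b* was called, with a log2 fold change of -2.72 ± 0.24 (SE, edgeR adjusted p = 3.74e-08).

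Microglia markers were mixed, with 3 of 8 that rose and 1, *Sall1*, that fell in the 5 libraries, and with *Sall1* alone past edgeR's adjusted or unadjusted p of 0.05 in all 6. Their sums were 1210 to 1342 CPM in the GFP libraries, 1482 and 1545 CPM in Ezh2 replicates 1 and 2, and 1051 CPM in replicate 3. All 4 pan-leukocyte markers rose in the 5 libraries and 1, *Laptm5*, in all 6, from sums of 775.2 to 858.7 CPM to 1116 and 1126 CPM, with 1760 CPM in replicate 3. Of 8 T cell markers, 7 rose in the 5 libraries and 2, *Cd3g* and *Cd8a*, in all 6. Their sums went from 447.4 to 474.7 CPM in the GFP libraries to 590.0 and 555.5 CPM, with 856.6 CPM in replicate 3. Of the plasmacytoid dendritic cell markers, 1 of 4 fell in the 5 libraries and 0 in all 6 by edgeR (2 at an unadjusted p under 0.05), with sums of 430.6 to 446.9 CPM in the GFP libraries and 398.0, 401.3 and 330.0 CPM in the Ezh2 libraries. Photoreceptor markers summed to 315.9 to 379.6 CPM in the GFP libraries and to 602.6, 634.8 and 352.8 CPM in the Ezh2 libraries, and endothelial and mural markers to 3569 to 3734 CPM and to 3320, 3337 and 2659 CPM. Photoreceptor markers that rose numbered 4 of 6 in the 5 libraries and 0 in all 6 by edgeR (3 at an unadjusted p under 0.05), and of 8 endothelial and mural markers 1 rose and 1 fell in the 5 libraries and 1 fell in all 6. B and plasma cell markers summed to 463.8 to 514.7 CPM in the GFP libraries and to 507.4, 477.1 and 288.6 CPM in the Ezh2 libraries, and 1 of 6 rose in the 5 libraries and 0 in all 6 by edgeR (also 0 at an unadjusted p under 0.05). Neutrophil markers *S100a8*, *S100a9*, *Retnlg* and *Ly6g* did not exceed 0.695 CPM. *Csf3r*, the other gene on that list, was at 56.3, 59.5 and 58.3 CPM in the GFP libraries and at 74.3, 79.7 and 52.7 CPM in the Ezh2 libraries. It rose in the 5 libraries (log2 fold change 0.42, edgeR adjusted p = 1.26e-05) and did not pass in all 6. Several of the sums rested mostly on few genes, given here by mean CPM in the GFP libraries. These were *Glul* (9760) for Müller glia, *Kdr* and *Flt1* (2360 and 917) for endothelial and mural, and *Lyz2* (361) for macrophage and monocyte. They were *Jchain* (472) for B and plasma cell, *Tcf4* (403) for plasmacytoid dendritic cell and *Thy1* (90.1) for RGC markers. The endothelial markers *Pecam1*, *Cldn5* and *Cdh5* were at 14.7, 3.51 and 3.17. The part of these cell types in the levels of the interferon-stimulated genes was not tested.

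**Figure D4:**
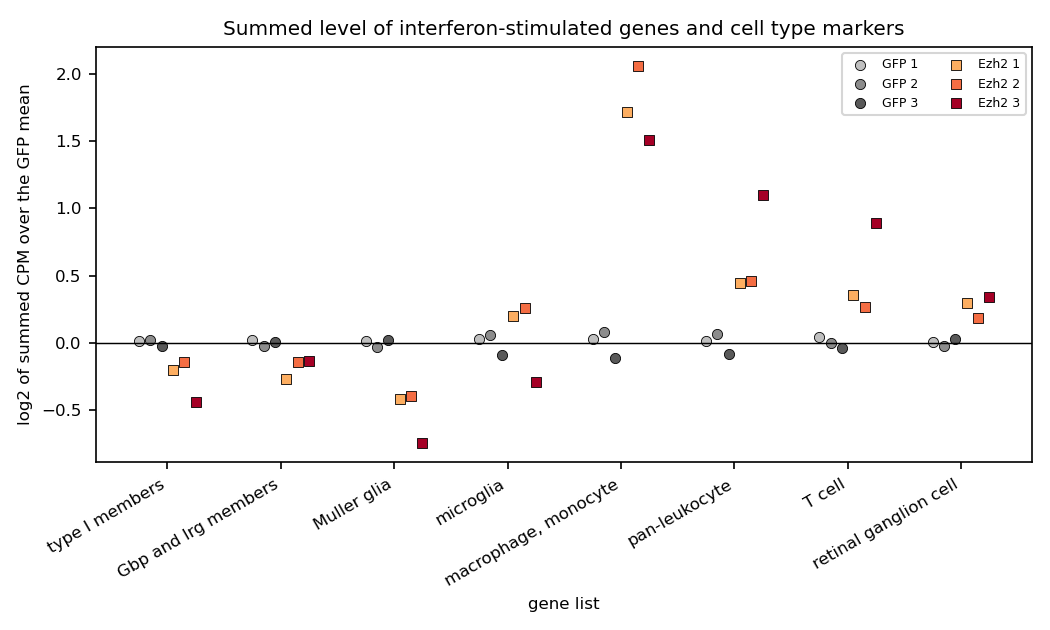
Log2 of summed CPM over the mean of the 3 GFP libraries (y axis) for both classes of member and 6 marker lists (x axis), 1 point per library (grey circles GFP, coloured squares Ezh2). Type I members, Müller glia markers and microglia markers are lowest in Ezh2 replicate 3, and macrophage markers are highest in Ezh2 replicate 2.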

How the data were processed

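RNA-Seq was made from CD90.2-sorted retinal cells in 6 libraries, 3 a group, and the table deposited by the authors holds raw read counts per Ensembl gene. Per the labels, total RNA was made into stranded libraries, and the submitters' processing notes name STAR 2.7.0d and GRCm38. The counting program, annotation release and strand setting are not given in the sources used here, so genes with antisense overlap, 6 of the 37 members, are uncertain. GENCODE M21 (GRCm38) gave symbols for 55394 of 55573 identifiers, and coordinates. All 6 columns were matched to samples by label.

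The members and lists were chosen with earlier results of these data known. A pathway gene outside the member list entered the fit but is not reported here, and the counts over pathway lists leave it out. Low genes were removed with filterByExpr, TMM supplied the scaling, and the robust quasi-likelihood test in edgeR 4.0.16 (R 4.3.3) compared the groups without covariates, two-sided and Benjamini-Hochberg adjusted over all genes tested. "Rose" and "fell" mean an adjusted p under 0.05, and a call also required more than 1.5-fold change. SEs came from the F statistic. CPM were computed on library totals. Floors of 3 counts cover counting error only, since the reads carry no molecular identifiers.

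Values per library are given for members called in either fit, for the most abundant members of each class, and for others that passed or stood near the threshold, which were added after their values were seen. Promoter stretches were to come from called members, and since none was called in the 5 libraries they came from members past the adjusted p alone, with windows clear of annotated exons. That choice, and the stretches for contrast, followed the values. The comparison was repeated on all 6 libraries, without single libraries, blocked by replicate number, and with DESeq2 1.42.0, limma-voom (limma 3.58.1), RLE factors, library totals, no filter and a filter at a mean of 50 counts. The fit was tested on simulated counts. Figures were drawn with matplotlib 3.10.9.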

Additional observations from a re-analysis of the deposited data

Results flagged for a closer look

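Ezh2 replicate 3 was not used in the main comparison, and some of its values stood above every GFP library. Among the members, these were *Sp100* at 67.4 CPM and *Gbp2* at 399 CPM. Among the pathway genes, *Ifng* reached 9.17 CPM, *Ikbke* 73.6 CPM and *Socs1*, an inhibitor of JAK kinases, 32.3 CPM, each more than 2-fold above the highest GFP library. The 2-fold limit for pathway genes was chosen after their values were seen.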

How the results depend on the processing

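The negative median of the members was kept in every alternative. With all 6 libraries the members called lower were 1 in place of 0, those that fell by adjusted p 7 in place of 19, and those that rose 0 in place of 1. Near-zero members changed sign with all 6 libraries, to log2 fold changes of -0.006 (*Ifit2*), -0.148 (*Mx1*), -0.010 (*Oas2*), -0.049 (*Ifi44*), -0.112 (*Trim30a*), -0.002 (*Lgals3bp*) and 0.067 (*Gbp2*), and *Trim30a* also with library totals (-0.007) and the 50-count filter (-0.002). None of these passed in either fit. The cause was not tested.

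Between GFP and Ezh2 libraries with the same replicate number, departures from the group means correlated at -0.0045, -0.0199 and -0.0099. The check took in Ezh2 replicate 3, with which the biological coefficient of variation was 0.1845 in place of 0.0846. That spread could hide a shared effect, so whether the replicate numbers pair the libraries was not settled. With the replicate block on the 5 libraries, 2 pathway genes were called higher in place of 5 and 1 lower in place of 2, 3 members no longer passed, and *Mx1* (-0.045) and *Trim30a* (-0.016) changed sign. With the block on all 6, 1 member was called lower, 3 fell and 0 rose, and signs changed for *Ifit2* (-0.012), *Mx1* (-0.166), *Oas2* (-0.009), *Ifi44* (-0.059), *Trim30a* (-0.123), *Lgals3bp* (-0.006) and *Gbp2* (0.051).

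Leaving out each library in turn from the 5 or the 6, members called lower numbered 0 to 2, those that fell 0 to 21 and those that rose 0 to 1. Of the 5 libraries the number that fell was 15 to 16 without 1 GFP library. Of the 6 it was 0 without any single GFP library, 2 without Ezh2 replicate 1 and 7 without Ezh2 replicate 2. Fewer genes of any kind passed in those fits of the 6. In either direction 112, 217 and 135 genes passed without GFP replicate 1, 2 or 3, compared to 1141 with all 6. Without Ezh2 replicate 1 or 2 of the 6 they numbered 661 and 840. These fits tested 20237 to 20297 genes, and the fit of all 6 tested 19732. Pathway genes called higher numbered 1 to 5 and lower 0 to 3, and from the 5 libraries the smallest number called higher, 2, came without GFP replicate 3. Medians ranged from -0.26 to -0.11 for all members, -0.27 to -0.11 for type I genes and -0.27 to -0.15 for Gbp and Irg genes. Over the same fits, log2 fold changes spanned 0 for *Ifit2* (-0.084 to 0.138), *Mx1* (-0.241 to 0.049), *Oas1a* (-0.293 to 0.004), *Oas2* (-0.062 to 0.104), *Oas3* (-0.018 to 0.247), *Zbp1* (-0.014 to 0.118), *Ifitm3* (-0.275 to 0.049), *Ifi44* (-0.174 to 0.173), *Trim30a* (-0.199 to 0.048), *Lgals3bp* (-0.069 to 0.124) and *Gbp2* (-0.176 to 0.173). DESeq2 and limma-voom each kept all but 1 and 2 of the members that passed.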
